A study of Mus musculus with 50 samples.

Results

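The STAT proteins (signal transducers and activators of transcription) are a family of transcription factors that carry cytokine signals to the nucleus. The genes described here are Stat2, Stat3, Stat4, Stat5a, Stat5b and Stat6, chosen by name, and they were followed in mouse spleen after injection of CpG DNA. A probe was taken when its annotated gene symbol was 1 of these names. All 6 genes were measured, out of 15312 named genes with a measured probe, and 9 probes carried their names. Stat3, Stat4 and Stat6 each had 2 probes, and the other genes had 1.

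The study asked how a ligand of the receptor TLR9 changes gene activity in the living animal over time and whether the cytokine TNF takes part in it. CpG ODN are short synthetic DNA strands with unmethylated CG pairs, which TLR9 recognises inside dendritic cells, B cells and macrophages. Spleen RNA of female mice was set against a common reference RNA, a pool of several mouse tissues and cell types, on 50 two-colour arrays in 12 groups. Each value below is a log2 ratio of spleen over that reference, so 1 unit is a doubling. The level of one probe cannot be set against that of another.

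In BALB/c mice (WT in the labels), 6 arrays came from untreated animals and 4 from each of 6 times after CpG ODN, the first at 0.5 h, then at 1 and 3 h, and the last 3 at 9, 24 and 72 h. These animals received 400 µg of an equal mixture of CpG ODN 1555 and 1466 into the peritoneum. A further 4 BALB/c arrays were made 3 h after 400 µg of the control ODN 1612 and 1471. As the series text spells them, 1612 keeps 1 of the 2 CG pairs of 1555, and 1471 holds 0 where 1466 holds 1. In C57BL/6 mice there were 4 arrays each from untreated control animals, control animals 3 h after CpG, untreated TNF-KO animals and TNF-KO animals 3 h after CpG. TNF-KO mice carry the label TNF knock out. No vehicle-injected group was used here, and neither age nor the origin of the knockout line is given in the sources used here. The ODN and its dose are not labelled for the C57BL/6 arrays. The 8 C57BL/6 arrays titled CpG are called untreated in a second label field, and the titles were followed.

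The Tnf level of each array bears on that choice for the C57BL/6 control arrays. It cannot show treatment in TNF-KO mice, so the titles of their CpG arrays were not checked by it. In C57BL/6 control mice Tnf lay between 0.58 and 0.78 on the 4 untreated arrays and between 3.16 and 4.59 on the 4 arrays titled CpG 3 h. In TNF-KO mice it lay between -0.61 and 0.43 on all 8 arrays, below every other array. An array held between 27619 and 30590 values, and the number of arrays limits the precision. Median correlations between arrays of a group were 0.85 to 0.928, and no 2 arrays held identical values. Spleen was checked against cell markers by the mean of each marker over all 50 arrays, treated and untreated. All 11 B cell markers and 11 of 12 T cell markers lay above the reference, with Cd79a at 6.01 and Cd3d at 4.68, while 4 of 19 cell cycle genes did. A list of 12 pancreas genes averaged between 0.27 and 6.95 on the arrays, unevenly by group. It ran from 5.91 to 6.61 in TNF-KO mice after CpG and from 0.29 to 6.31 in untreated C57BL/6 control mice. In BALB/c mice 3 h after CpG it ran from 0.31 to 5.71. The part of this spread in the STAT results was not tested. Per the series text each time point holds 4 independent experiments, while for untreated mice separate days are not stated, so a p-value here covers no more than the variation among these arrays. Spleen is a mixture of cells, and fewer cells of a type cannot be told apart from less RNA per cell.

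Cytokine receptors hold kinases of the JAK family, which phosphorylate STAT proteins once a ligand binds. The STAT proteins then pair, enter the nucleus and bind DNA. STAT2 joins IRF9 and a second STAT protein in the complex that answers type I interferon, STAT3 answers IL-6 and IL-10, STAT4 answers IL-12, STAT5A and STAT5B answer IL-2, GM-CSF and growth hormone, and STAT6 answers IL-4 and IL-13. SOCS proteins are made in response and switch the receptors off. Activity of the STAT proteins themselves is set by phosphorylation, which these arrays do not measure.

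Promoter sequence was read because several STAT genes are themselves targets of STAT complexes. Sequences are from RefSeq (GRCm38.p6), in windows from 250 bases before to 50 after each annotated start, and all 6 genes matched at least 1 window. The core of the interferon-stimulated response element was searched on both strands as GAAA, any 2 bases and GAAA again. It stood in 1131 of 32851 windows, or 3.44%. Stat2 and Stat4 held it among the 6 genes. Their segments are shown with that of Ifit3, an interferon-stimulated gene, and of Irgm2, whose group means ran most like those of Stat5a, with the matched bases in capitals.

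Stat2 at chr10:128270248-128270315, plus strand: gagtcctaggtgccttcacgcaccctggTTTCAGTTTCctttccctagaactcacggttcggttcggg
Stat4 at chr1:52008113-52008182, plus strand: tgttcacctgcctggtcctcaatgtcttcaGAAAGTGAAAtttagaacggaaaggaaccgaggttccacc
Ifit3 at chr19:34583377-34583446, plus strand: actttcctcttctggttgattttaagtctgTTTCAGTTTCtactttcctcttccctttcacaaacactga
Irgm2 at chr11:58214883-58214952, plus strand: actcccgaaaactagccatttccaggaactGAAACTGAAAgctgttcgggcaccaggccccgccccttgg

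In Stat2 the match began 222 bases before the start, on the minus strand, and in Stat4 97 bases before the start of 1 of its 2 windows. The same Stat2 segment held TTCCCTAGAA, 210 bases before the start, which matches TTC and GAA with 4 bases between them, the spacing preferred by STAT6. That pattern stood in 6.95% of all windows. TTCNNNGAA, the gamma-activated site bound by STAT pairs, stood in 8.3% of all windows and in no window of the 6 genes. Of the 17 measured interferon-stimulated genes listed below, 12 had a window and 7 of them held the interferon element core. Of the 3 genes whose means ran most like Stat5a, 1 held it, Irgm2, and Stat5a itself did not. Of the genes most like Stat2, Stat3 and Stat4, 2, 3 and 3 had a window and 0 held it. Of those most like Stat5b and Stat6, 2 and 2 had a window and 0 held it. A match describes letters, and binding was not measured.

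Stat2 rose 3 h after CpG ODN in BALB/c, C57BL/6 control and TNF-KO mice, and in BALB/c mice it was higher than in untreated spleen through 72 h. Stat3 rose at 3 h in C57BL/6 control mice with both probes and in BALB/c mice with 1 of 2, and it was not called in TNF-KO mice. Stat4 rose at 1 h in BALB/c mice, the only mice examined at that time. Stat5a and Stat6 passed the test in no comparison and Stat5b in 1. Calls rest on limma with p-values adjusted over all genes of a comparison and a threshold of 0.05. At 0.5 h 0 of 6 STAT genes were called (0.256% of all genes, and 0 STAT genes with an unadjusted p under 0.05). At 1 h 1 of 6 rose (3.3% of all genes called, 3.01% upward), and at 3 h 2 of 6 rose (9.96% called, 6.82% upward). At 9, 24 and 72 h 1 of 6 rose, against 6.96%, 8.44% and 10.6% of all genes called and 4.19%, 6.82% and 6.47% called upward. The median change of the 6 genes at 3 h was 0.55, and that of all genes was -0.03.

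**Figure D1:**
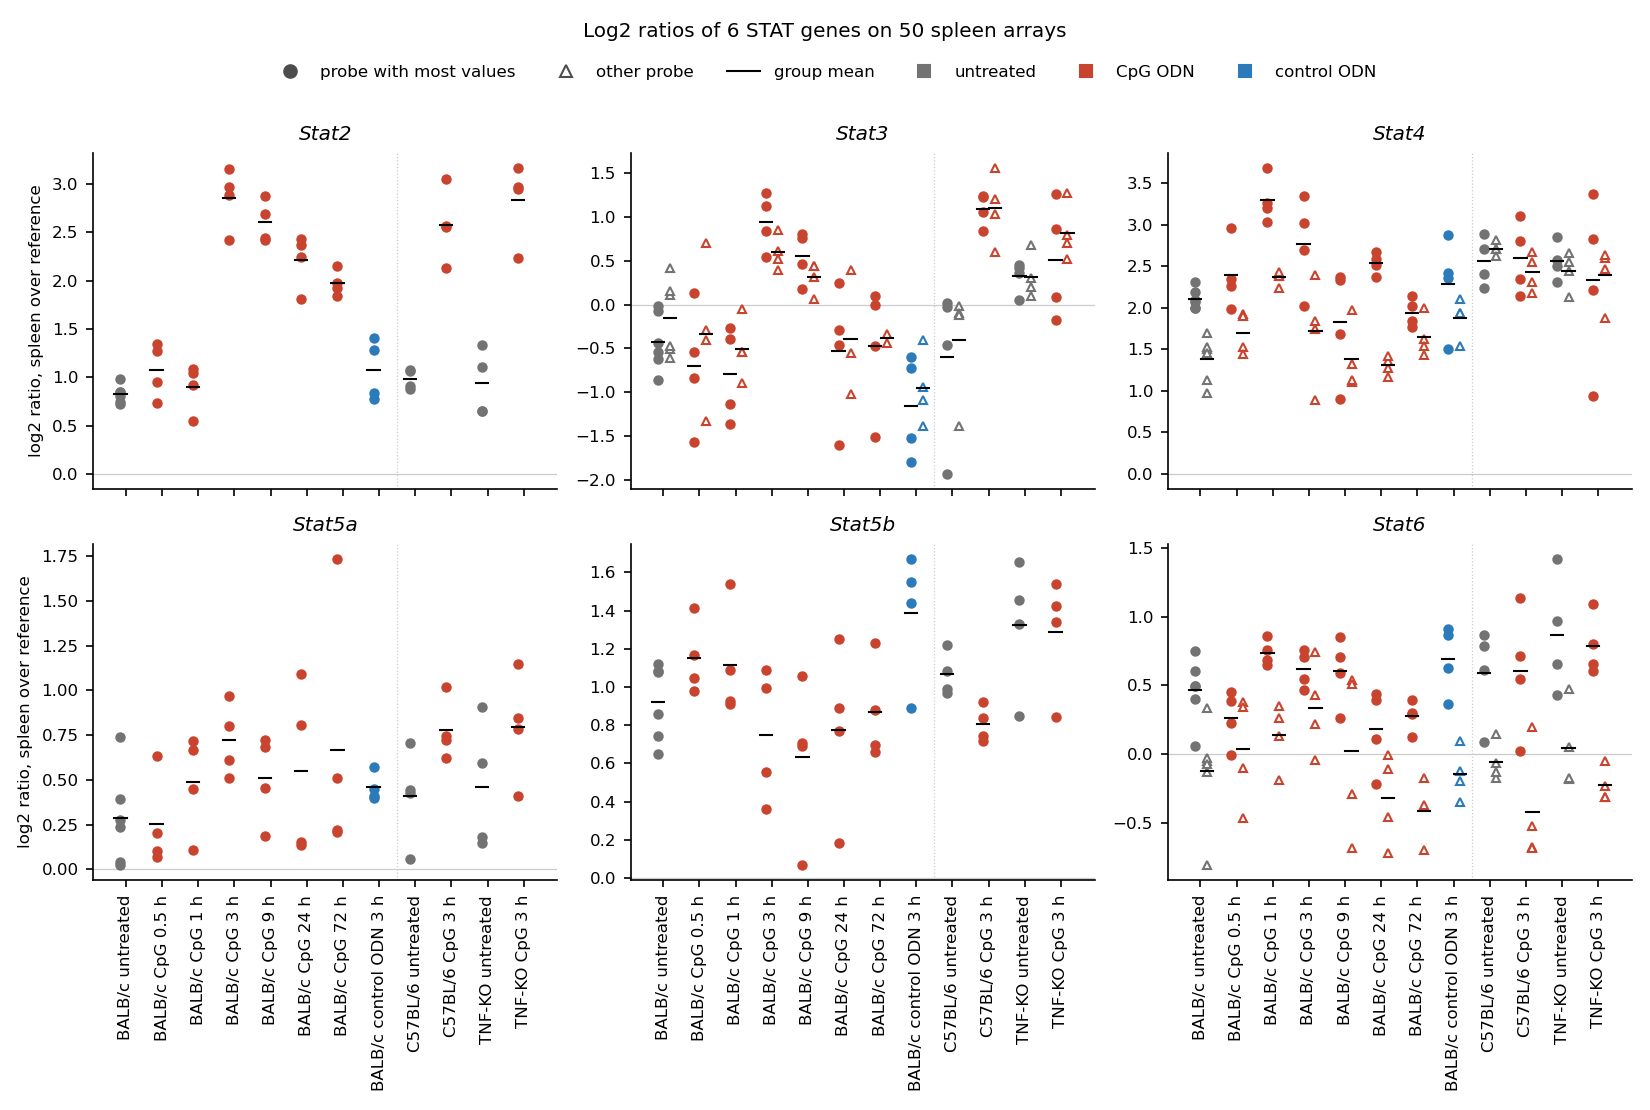
Log2 ratio of spleen over reference (y axis) of the 6 STAT genes on each of 50 arrays, by group (x axis), with circles for the probe with most values, open triangles for the other probe, and a bar at the group mean. Each panel has its own scale. Stat2 lies between 1.81 and 3.17 on every array taken 3 h or later after CpG and between 0.54 and 1.41 on all others.

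Stat2, the interferon-specific member, gave the most separated values. On the 6 untreated BALB/c arrays its log2 ratio ran from 0.73 to 0.99 with a median of 0.83. At 0.5 h the 4 arrays read 1.34, 1.27, 0.74 and 0.95, and at 1 h 0.54, 1.09, 1.05 and 0.92. Both groups overlapped the untreated arrays. At 3 h the arrays read 3.16, 2.42, 2.89 and 2.97, all above every untreated array. Stat2 rose by 2.03 ± 0.16 (log2, SE), or 4.08-fold, with an adjusted p of 1.25e-11 and a 95% interval of 1.70 to 2.36.

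Stat2 was called at the later times too. At 9 h the arrays read 2.88, 2.42, 2.69 and 2.45, a rise of 1.78 ± 0.16 over untreated spleen (3.44-fold, adjusted p = 4.73e-10). At 24 h they read 2.25, 2.43, 2.37 and 1.81, a rise of 1.39 ± 0.16 (2.62-fold, adjusted p = 1.76e-07). At 72 h they read 2.15, 1.92, 1.97 and 1.85, a rise of 1.14 ± 0.16 (2.21-fold, adjusted p = 1.2e-05). None of these groups overlapped the untreated arrays. No run held untreated arrays together with arrays of 9, 24 or 72 h. Stat2 was called under all 19, 19 and 18 alternative settings tried at 9, 24 and 72 h. From 3 h to 9 h the difference was -0.25 ± 0.18 (adjusted p = 0.773). From 3 h to 24 h Stat2 fell by 0.64 on the log2 scale (SE 0.18, adjusted p = 0.0166), a comparison in which 2 of 6 STAT genes fell and 9.13% of all genes were called (3.31% downward). This fall lost its call without 3 h replicate 1 (adjusted p = 0.0851), 3 h replicate 4 (0.0523) or 24 h replicate 4 (0.0577), and with the array run as a block (0.177).

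**Figure D2:**
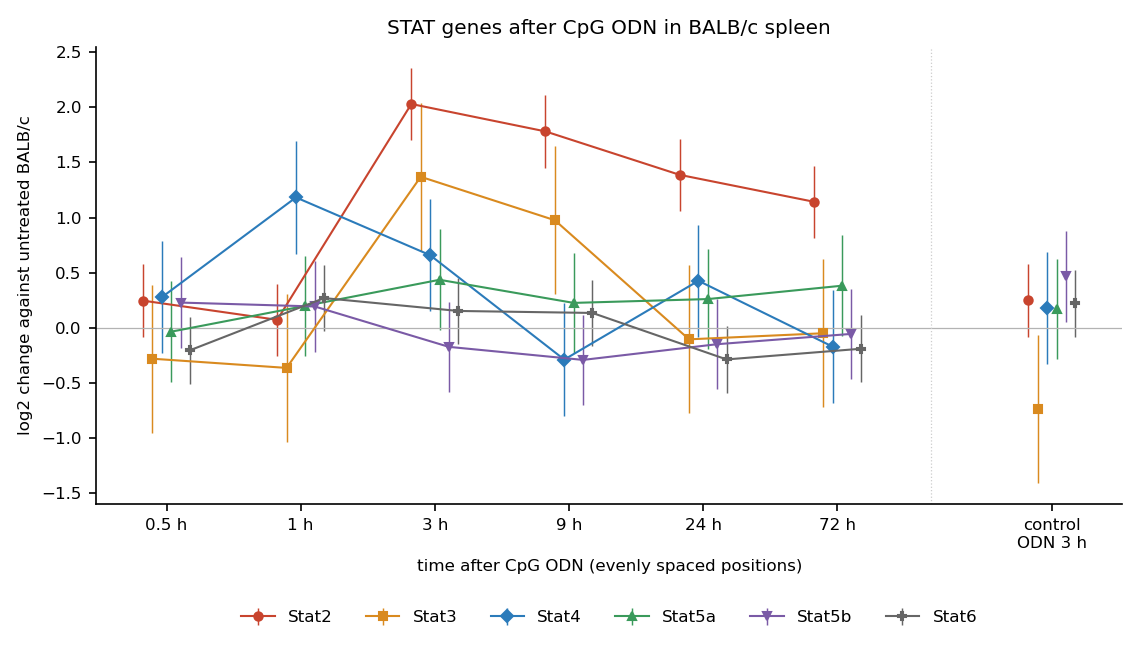
Log2 change against untreated BALB/c spleen (y axis) of the 6 STAT genes at 6 times after CpG ODN and 3 h after control ODN (x axis, evenly spaced). Points are limma estimates for the probe with most values and bars are 95% intervals. Stat2 is at 2.03 at 3 h and 1.14 at 72 h, Stat3 at 1.37 at 3 h and -0.05 at 72 h, and Stat4 at 1.18 at 1 h.

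After control ODN the Stat2 arrays read 1.28, 0.84, 1.41 and 0.78. They overlapped the untreated arrays, and the difference was 0.25 ± 0.16 (adjusted p = 0.364). Stat2 was higher after the CpG mixture than after control ODN by 1.78 ± 0.18 (3.43-fold, adjusted p = 3.66e-09). In that comparison 2 of 6 STAT genes were higher and 1 lower, and 18.3% of all genes were called, 7.4% upward and 10.9% downward. Control ODN against untreated spleen gave no STAT call (1.42% of all genes, and 2 STAT genes with an unadjusted p under 0.05). No run held control ODN arrays together with untreated or 3 h CpG arrays. In either comparison ODN and array run therefore cannot be told apart.

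Stat2 also rose in both C57BL/6 genotypes. Untreated control arrays read 1.07, 0.88, 1.06 and 0.91, and those taken 3 h after CpG 2.56, 2.57, 3.05 and 2.13. Untreated TNF-KO arrays read 1.11, 0.66, 1.34 and 0.65, and those after CpG 2.97, 3.17, 2.95 and 2.24. Treated and untreated arrays overlapped in neither genotype. The rise was 1.59 ± 0.23 in control mice (3.02-fold, adjusted p = 0.000163) and 1.89 ± 0.23 in TNF-KO mice (3.72-fold, adjusted p = 2.79e-05). Of the 6 STAT genes 2 rose in control mice (7.72% of all genes called, 4.98% upward) and 1 in TNF-KO mice (3.77%, 3.45% upward). The TNF-KO response minus the control response was 0.30 ± 0.32, with an interval of -0.37 to 0.97 and an adjusted p of 0.87. The C57BL/6 control response minus the BALB/c response was -0.44 ± 0.26, with an interval of -0.97 to 0.09 and an adjusted p of 0.868. Runs are stretches of adjacent array numbers in the titles, and within runs that held both groups the Stat2 difference at 3 h was 2.08 in BALB/c, 1.65, 1.99 and 1.67 in C57BL/6 control mice and 1.72 and 1.59 in TNF-KO mice.

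In the order of group means, 6 groups lay between 0.83 ± 0.09 (untreated BALB/c, SD, n = 6) and 1.08 ± 0.31 (control ODN, n = 4). The other 6 lay between 1.97 ± 0.13 (72 h, n = 4) and 2.86 ± 0.31 (3 h, n = 4). The step from control ODN to 72 h was the only step between neighbours larger than the larger SD of the pair. Over the 12 group means, the genes most like Stat2 by Pearson correlation among 14821 candidates were Dhx58 (r = 0.987), Parp12 (0.986) and Phf11d (0.984). Dhx58 encodes the RNA sensor LGP2, and its mean was 0.94 in untreated BALB/c spleen and 3.95 at 3 h.

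Stat3 mediates signals of IL-6 and IL-10 and drives acute-phase genes. On the untreated BALB/c arrays its first probe ran from -0.86 to -0.02 with a median of -0.49. At 3 h after CpG it read 0.84, 1.27, 1.13 and 0.54, above all untreated arrays. Stat3 rose by 1.37 ± 0.33 (2.58-fold, adjusted p = 0.00416). The other probe read 0.53, 0.85, 0.62 and 0.39 at 3 h against -0.61 to 0.41 in untreated spleen, which overlapped, and its difference of 0.75 ± 0.28 was not called (adjusted p = 0.11). With the run as a block the first probe gave 1.18 and lost its call (adjusted p = 0.287), and within the run that held both groups the difference was 1.27.

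At other times Stat3 passed no test against untreated spleen. The 0.5 h arrays read -0.84, -0.54, 0.13 and -1.57, and the difference was -0.28 (adjusted p = 0.72). The 1 h arrays read -1.36, -0.39, -1.13 and -0.27, and the difference was -0.36 (adjusted p = 0.614). These values spread over more than 1 log2 unit and covered most of the untreated range. At 9 h the arrays read 0.81, 0.47, 0.76 and 0.17, all above the untreated arrays, and the difference of 0.98 ± 0.33 missed the threshold (adjusted p = 0.0708). At 24 h they read -0.29, -1.60, -0.46 and 0.24, and at 72 h -0.01, -0.47, -1.51 and 0.09, with differences of -0.10 and -0.05. Between 3 h and 24 h Stat3 fell by 1.47 on the log2 scale (SE 0.36, to 0.36 of its 3 h ratio, adjusted p = 0.00682), and the groups did not overlap. The other probe, with 3 arrays at 24 h, gave -0.99 ± 0.34 and was not called (adjusted p = 0.0638). Without 24 h replicate 2, the lowest of that group, the fall was 1.12 in size (log2 change -1.12) and the adjusted p 0.0534.

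Set against control ODN, Stat3 gave its widest gap. The control ODN arrays read -1.52, -0.59, -1.80 and -0.72 for the first probe and -1.09, -0.95, -1.38 and -0.40 for the other, all below every CpG array at 3 h. After the CpG mixture the first probe was higher by 2.10 ± 0.36 (4.3-fold, adjusted p = 7.93e-05) and the other by 1.55 ± 0.31 (2.93-fold, adjusted p = 0.000771). Control ODN itself differed from untreated spleen by -0.73 ± 0.33 (adjusted p = 0.185) and by -0.80 ± 0.28 (adjusted p = 0.114), so neither probe was called. The 2 comparisons with the 3 h CpG arrays share those arrays. In the comparisons with control ODN, ODN and array run cannot be told apart.

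In C57BL/6 control mice Stat3 rose with both probes. Untreated arrays read -1.93, 0.02, -0.46 and -0.02, and CpG arrays 1.22, 0.83, 1.24 and 1.05, without overlap. The rise was 1.68 ± 0.36 (3.21-fold, adjusted p = 0.00543), and with the other probe 1.50 ± 0.28 (2.83-fold, adjusted p = 0.0021). Untreated replicate 1 was the lowest array of its group with both probes, and without it the rise was 1.24 (adjusted p = 0.0107). Within 3 runs that held both groups the difference was 0.86, 1.70 and 1.20.

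In TNF-KO mice Stat3 passed no test after CpG. Untreated TNF-KO arrays read 0.36, 0.42, 0.46 and 0.05, and those after CpG 0.09, -0.17, 1.26 and 0.86, so the groups overlapped. The difference was 0.19 ± 0.36 with an interval of -0.56 to 0.93 (adjusted p = 0.883), and with the other probe 0.50 ± 0.28 (adjusted p = 0.47). Within the runs that held both groups the first probe gave 0.09 and 0.81. The TNF-KO response minus the control response was -1.50 ± 0.50 (interval -2.56 to -0.44). This difference of responses failed the adjustment over all genes (limma, unadjusted p = 0.00801, adjusted p = 0.467), in a comparison that called 0 STAT genes and 0.0268% of all genes. Without untreated control replicate 1 it was -1.05 (adjusted p = 0.73), and with the run as a block -0.87 (adjusted p = 0.562). All 4 untreated TNF-KO arrays lay above all 4 untreated control arrays with both probes, by 0.92 ± 0.36 (adjusted p = 0.314) and 0.72 ± 0.28 (adjusted p = 0.327), and the first value was 0.48 (adjusted p = 0.625) without that array. That comparison called 0 STAT genes (1 with an unadjusted p under 0.05) and 0.562% of all genes, or 84 genes, a number that ran from 2 to 376 when single arrays were left out. After CpG the TNF-KO level differed from the control level by -0.58 ± 0.36 (adjusted p = 0.524), in a comparison with 0 STAT calls (1 with an unadjusted p under 0.05) and 0.361% of all genes called.

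**Figure D3:**
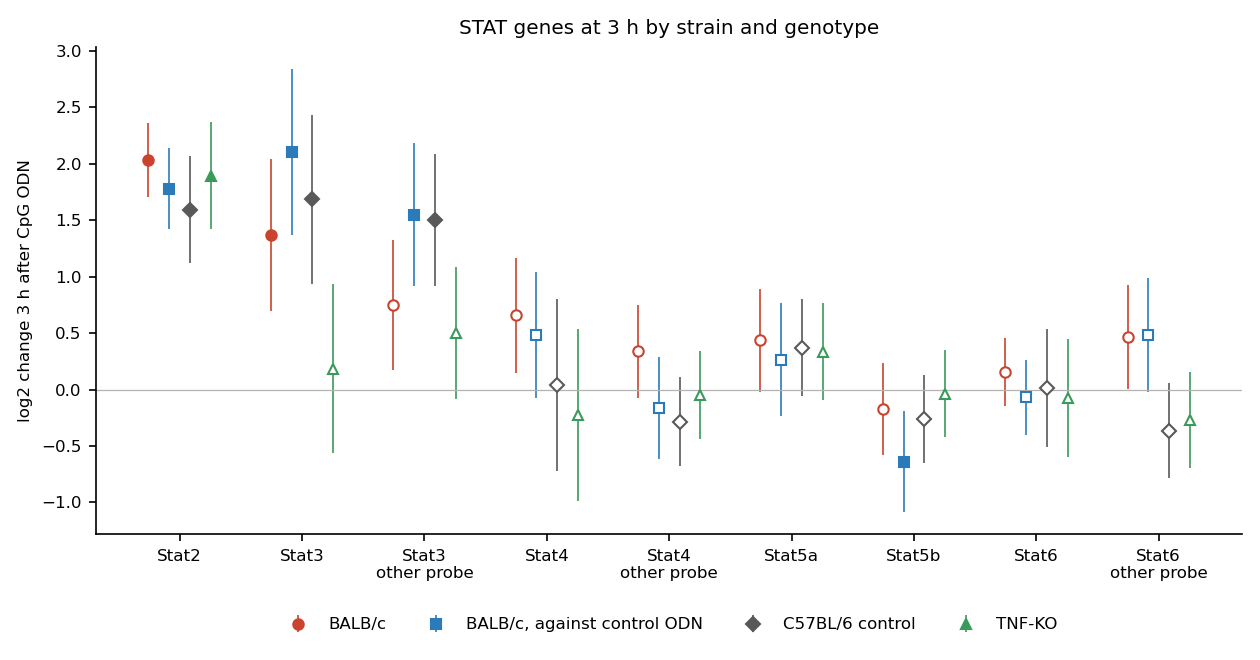
Log2 change 3 h after CpG (y axis) for each STAT probe (x axis) in BALB/c against untreated spleen and against control ODN, in C57BL/6 control and in TNF-KO mice. Points are limma estimates, bars 95% intervals, and filled points have an adjusted p under 0.05. Stat2 is filled in all 4, and Stat3 lies at 1.68 in control and 0.19 in TNF-KO mice with the first probe.

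The group means of Stat3 ran from -1.16 ± 0.59 (control ODN, n = 4) to 1.09 ± 0.19 (C57BL/6 control CpG, n = 4). The 7 lowest groups, up to untreated BALB/c at -0.42 ± 0.33, did not differ between neighbours beyond their SD. A step larger than the SD led to untreated TNF-KO (0.32 ± 0.18), and another led from BALB/c at 9 h (0.55 ± 0.29) to BALB/c at 3 h (0.95 ± 0.32). Genes most like Stat3 over the 12 means were Fkbp1a (r = 0.951), Exosc2 (0.946) and Tmem87b (0.941). Fkbp1a encodes the small prolyl isomerase that binds rapamycin, and Exosc2 a subunit of the RNA exosome.

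Stat4, the IL-12 responder of T and NK cells, rose earlier. On untreated BALB/c arrays its first probe ran from 2.00 to 2.31 with a median of 2.08. At 1 h after CpG it read 3.20, 3.68, 3.03 and 3.26, all above the untreated arrays. Stat4 rose by 1.18 ± 0.25 (2.27-fold, adjusted p = 0.00318). The other probe read 2.41, 2.38, 2.24 and 2.43 against 0.98 to 1.70 in untreated spleen and rose by 0.99 ± 0.20 (1.98-fold, adjusted p = 0.00292). Within both runs that held the 2 groups the first probe gave 1.31 and 1.15. When all arrays were scaled to the same spread the change was 0.77 and its call was lost (adjusted p = 0.192).

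Around that time Stat4 gave wider values and no call. At 0.5 h it read 2.35, 1.98, 2.26 and 2.96 (difference 0.28, adjusted p = 0.638). At 3 h it read 2.02, 2.70, 3.35 and 3.02 (0.66 ± 0.25, adjusted p = 0.1), and without replicate 1, the lowest, the difference was 0.91 and was called (adjusted p = 0.0195). Replicate 1 lay within the untreated range and the other 3 arrays above it. At 9 h it read 1.68, 0.91, 2.37 and 2.33, at 24 h 2.59, 2.67, 2.37 and 2.52, and at 72 h 1.84, 2.02, 2.14 and 1.77. The 24 h arrays lay above all untreated arrays, yet the difference of 0.43 ± 0.25 was not called (adjusted p = 0.312) and the other probe gave -0.07. The mean of both probes gave 0.18 and the run as a block 1.43, neither called (adjusted p = 0.572 and 0.206). Between 3 h and 9 h the difference was -0.95 ± 0.27 (adjusted p = 0.0949), in a comparison with 0 STAT calls, 1 STAT gene with an unadjusted p under 0.05 and 0.996% of all genes called.

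Stat4 did not pass the test 3 h after CpG in C57BL/6 mice. Control arrays read 2.41, 2.24, 2.71 and 2.89 untreated and 2.80, 2.34, 3.11 and 2.15 after CpG, a difference of 0.04 ± 0.36 (adjusted p = 0.97). TNF-KO arrays read 2.58, 2.31, 2.85 and 2.51 untreated and 2.83, 3.37, 2.21 and 0.94 after CpG, a difference of -0.23 ± 0.36 (adjusted p = 0.857). The treated TNF-KO arrays had the widest range of any group on the first Stat4 probe, down to replicate 4. In untreated mice the other probe stood at 2.62 to 2.82 in C57BL/6 control and at 0.98 to 1.70 in BALB/c spleen, without overlap. That probe was higher by 1.33 ± 0.19 in C57BL/6 mice (2.52-fold, adjusted p = 1.75e-06 over all probes), while the first gave 0.45 ± 0.29 (adjusted p = 0.328). With 1 probe per gene this strain comparison called 0 of 6 STAT genes (0 with an unadjusted p under 0.05) and 14.5% of all genes, and strain and array run cannot be told apart in it. The 2 Stat4 probes thus gave the same call at 1 h and different calls between strains.

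The Stat4 means of the first probe ran from 1.82 ± 0.69 (9 h, n = 4) to 3.29 ± 0.28 (1 h, n = 4), and no step between neighbours exceeded the larger SD. With the other probe a step beyond the SD led from control ODN (1.88 ± 0.24) to 1 h (2.37 ± 0.08), and another from untreated TNF-KO (2.44 ± 0.23) to untreated C57BL/6 control (2.71 ± 0.08). Genes most like Stat4 were Pth (r = 0.851), which encodes parathyroid hormone, Crebbp (0.83), which encodes a STAT coactivator, and Ch25h (0.83), an interferon-stimulated cholesterol hydroxylase.

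Cell markers moved at the same time as Stat4. At 1 h 7 of 13 neutrophil markers, 3 of 14 monocyte and macrophage markers and 3 of 8 platelet markers rose. Of all genes 3.3% were called at 1 h, 3.01% upward. The neutrophil list averaged 1.70 to 2.62 on untreated and 3.13 to 3.97 on 1 h arrays, the monocyte list 1.96 to 2.50 and 2.73 to 3.15, and the platelet list 1.58 to 1.98 and 2.29 to 2.81, so none of the 3 overlapped. Of the cells known to use Stat4, 0 of 9 NK markers and 0 of 12 T cell markers were called at 1 h. Their lists averaged 1.79 to 2.76 and 1.30 to 1.82 untreated, and 2.54 to 3.10 and 1.65 to 2.10 at 1 h, with overlap. Between untreated strains 4 NK markers were higher and 1 lower in C57BL/6 mice, and 6 T cell markers were higher. That comparison called 14.5% of all genes. At 3 h, when Stat2 and Stat3 rose, 5 neutrophil markers rose in BALB/c spleen and the list averaged 2.77 to 3.06, while 2 monocyte markers rose and that list averaged 2.50 to 2.76, just above the untreated arrays. None of 11 B cell markers was called at 3 h, when 9.96% of all genes were called (6.82% upward). Beside the later Stat2 values, 5 neutrophil markers rose at 9 h, when that list averaged 3.03 to 3.43 without overlap. Of all genes 6.96% were called at 9 h, 4.19% upward. At 24 h 5 monocyte markers rose and 2 of 11 erythroid markers fell, beside 8.44% of all genes called (6.82% upward). The monocyte list then averaged 2.69 to 3.11, and the erythroid list 3.98 to 4.64 against 4.70 to 5.00 in untreated spleen. At 72 h 2 of 19 cell cycle genes and 4 of 9 NK markers rose, beside 10.6% of all genes called (6.47% upward). The cell cycle count lies near that share. The cell cycle list averaged 0.23 to 0.91 against -0.41 to 0.06 in untreated spleen. The NK list averaged 2.64 to 3.35 against 1.79 to 2.76, with overlap. After control ODN 3 neutrophil markers were called higher, beside 1.42% of all genes called. Those calls were lost with arrays scaled to the same spread, and the neutrophil list averaged 2.26 to 3.68. In C57BL/6 mice 6 neutrophil markers rose after CpG in control (7.72% of all genes called) and 7 in TNF-KO animals (3.77%). Log2 ratios have no zero of expression, so no marker can be called absent, and the part of these cells in the STAT results was not tested.

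Stat5a and Stat5b are neighbouring genes on chromosome 11 that encode near-identical proteins, and probes of such pairs can share signal. Stat5a was called in no comparison. Untreated BALB/c arrays ran from 0.02 to 0.74 with a median of 0.26, and the 3 h arrays read 0.97, 0.61, 0.80 and 0.51, a difference of 0.44 ± 0.22 (adjusted p = 0.283). At 3 h 2 of the 4 arrays lay above the untreated range. In C57BL/6 mice the difference was 0.37 ± 0.20 in control (adjusted p = 0.311) and 0.34 ± 0.20 in TNF-KO mice (adjusted p = 0.516), with overlap in both. At 72 h the arrays read 0.22, 1.73, 0.21 and 0.51, and replicate 2 stood apart from the others. Weighting arrays by their quality gave a change of 0.87 at 72 h and a call (adjusted p = 0.00352), against 0.38 ± 0.22 (adjusted p = 0.266) with equal weights. The means ran from 0.25 ± 0.26 (0.5 h) to 0.79 ± 0.30 (TNF-KO CpG), and no step exceeded the SD.

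Genes most like Stat5a over the 12 means were Irgm2 (r = 0.961), an interferon-inducible GTPase, Irf9 (0.931), the DNA-binding partner of STAT2, and Il15ra (0.931), the IL-15 receptor chain. Among the family, the means of Stat5a ran with those of Stat2 (r = 0.831 over 12 group means), and those of Stat3 with both (0.741 with Stat2 and 0.661 with Stat5a). Stat5a and Stat5b gave -0.251, Stat2 and Stat5b -0.552 and Stat2 and Stat4 -0.19. All these means share arrays and reference, and the correlations are descriptions.

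Stat5b was lower after CpG than after control ODN. Its 3 h CpG arrays read 0.56, 1.09, 0.99 and 0.36, and its control ODN arrays 1.67, 1.44, 1.55 and 0.89. The groups overlapped through control ODN replicate 4. Stat5b was 0.643 of the control ODN ratio (log2 change -0.64 ± 0.22, adjusted p = 0.0402). The call was lost without CpG replicate 1 (0.104) or 4 (0.148) or control ODN replicate 1 (0.129), 2 (0.0755) or 3 (0.118). In the same comparison 3 of 11 B cell and 3 of 12 T cell markers were lower after CpG, and 0 higher. Of all genes 18.3% were called there, 10.9% downward, and ODN and array run cannot be told apart in it. The B cell list averaged 2.27 to 2.50 after CpG and 2.63 to 3.29 after control ODN. The T cell list averaged 1.17 to 1.43 after CpG and 1.31 to 1.85 after control ODN, with overlap. The part of these cells in the Stat5b result was not tested. Untreated Stat5b arrays ran from 0.65 to 1.12 with a median of 0.97 and overlapped both groups. Against them the CpG arrays differed by -0.17 ± 0.20 (adjusted p = 0.731) and the control ODN arrays by 0.47 ± 0.20 (adjusted p = 0.168). Without control ODN replicate 4 the latter was 0.63 and was called (adjusted p = 0.0422).

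In C57BL/6 control mice Stat5b read 1.08, 0.99, 1.22 and 0.97 untreated and 0.92, 0.74, 0.72 and 0.84 after CpG. The groups did not overlap, and the difference of -0.26 ± 0.19 was not called (adjusted p = 0.456). In TNF-KO mice it read 1.65, 1.46, 1.33 and 0.85 untreated and 1.34, 0.84, 1.54 and 1.42 after CpG. After CpG, TNF-KO exceeded control by 0.48 ± 0.19 (adjusted p = 0.297). The means of Stat5b ran from 0.63 ± 0.41 (9 h) to 1.39 ± 0.34 (control ODN) with no step beyond the SD. Genes most like it were Aldh2 (r = 0.976), a mitochondrial aldehyde dehydrogenase, Tsc1 (0.951), an inhibitor of mTOR signalling, and Sidt2 (0.951).

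Stat6, the IL-4 and IL-13 responder, was called in no comparison. Its first probe ran from 0.06 to 0.75 in untreated BALB/c spleen, and it read 0.76, 0.86, 0.64 and 0.69 at 1 h and 0.71, 0.55, 0.76 and 0.46 at 3 h. Both groups overlapped the untreated arrays, with differences of 0.27 ± 0.15 (adjusted p = 0.366) and 0.15 ± 0.15 (adjusted p = 0.656). At 24 h it read 0.39, 0.11, -0.22 and 0.44, below all 3 h arrays. The difference between 24 h and 3 h was -0.44 ± 0.16 (adjusted p = 0.0871), and with the other probe -0.66 ± 0.25 (adjusted p = 0.0989). Leaving out 24 h replicate 4 gave -0.53 and a call (adjusted p = 0.0382). In C57BL/6 mice the 3 h differences were 0.02 ± 0.25 (control, interval -0.51 to 0.54) and -0.08 ± 0.25 (TNF-KO, interval -0.60 to 0.44).

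The 2 Stat6 probes differed most between strains. The C57BL/6 control response minus the BALB/c response at 3 h was -0.14 ± 0.27 with the first probe and -0.83 ± 0.32 with the other, neither called (adjusted p = 0.983 and 0.546). No STAT gene was called in that comparison (0 with an unadjusted p under 0.05 among the first probes), where 0.453% of all genes were. The means of Stat6 ran from 0.18 ± 0.30 (24 h) to 0.87 ± 0.43 (untreated TNF-KO), with no step beyond the SD. Genes most like it were Zkscan6 (r = 0.891), Calml3 (0.868) and Tmem150a (0.865).

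Of the 4 JAK kinases upstream of the STAT proteins, 2 rose at 3 h (9.96% of all genes called). Tyk2, which serves the interferon and IL-12 receptors, rose by 1.23 ± 0.20 (adjusted p = 3.32e-05) and Jak3, which serves the IL-2 receptor family, by 1.04 ± 0.21 (adjusted p = 0.000772). The median of the 4 was 0.92. Jak2 gave 0.79 ± 0.29 against untreated spleen (adjusted p = 0.0788) and exceeded control ODN by 1.37 ± 0.31 (adjusted p = 0.00227). ODN and array run cannot be told apart in the latter. From 3 h to 24 h, Jak2, Tyk2 and Jak3 fell. In C57BL/6 control mice Tyk2 rose by 0.89 ± 0.17 (adjusted p = 0.00241). In TNF-KO mice 0 of 4 kinases were called, with Tyk2 at -0.09 ± 0.15 (adjusted p = 0.87) and a median of 0.00. The difference of the Tyk2 responses, TNF-KO minus control, was -0.97 ± 0.23 and failed the adjustment (adjusted p = 0.316).

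Of 14 STAT partners and modulators, 4 rose at 3 h (9.96% of all genes called, 6.82% upward). They were Nmi, which binds STAT proteins, by 2.02 ± 0.16, Irf9 by 1.06 ± 0.17, and the phosphatases Ptpn2 and Ptpn1 by 0.83 ± 0.16 and 0.84 ± 0.24. The median of the 14 was -0.03. The coactivator genes Crebbp (0.19 ± 0.23) and Ep300 (-0.44 ± 0.21) and the 4 Pias genes, STAT inhibitors, were not called. At 9, 24 and 72 h 3, 2 and 3 of the 14 rose, and 3 fell at 72 h, beside 6.96%, 8.44% and 10.6% of all genes called. Nmi rose by 1.36 ± 0.19 in C57BL/6 control and 1.26 ± 0.19 in TNF-KO mice, and Irf9 by 0.91 ± 0.16 and 0.83 ± 0.16.

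Of 8 SOCS and CISH feedback genes 3 rose at 1 h (3.3% of all genes called) and the other 5 were not called. Socs3 rose by 4.09 ± 0.24 at 1 h (adjusted p = 3.7e-14), Socs1 by 0.98 ± 0.27 and Cish by 0.84 ± 0.21. At 3 h 2 of the 8 rose (9.96% of all genes called), and Socs3 stood at 3.33 ± 0.24 above untreated spleen. At 72 h Socs3 and Socs1 were still higher, by 0.74 ± 0.24 and 0.91 ± 0.27. In TNF-KO mice Socs3 rose by 3.14 ± 0.26, and in control mice by 3.01 ± 0.24. Socs3 was 0.92 ± 0.24 higher after control ODN than in untreated spleen (adjusted p = 0.0476), where 1.42% of all genes were called. With arrays scaled to the same spread or repeat numbers as a block, 0 of all genes were called there. No run held both groups.

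Ligands and receptors moved in small numbers. Of 19 measured cytokines, Il12b, which encodes a chain of IL-12, rose by 3.57 ± 0.18 at 1 h and 3.67 ± 0.18 at 3 h. Il6, which acts through STAT3, rose by 2.57 ± 0.34 and 3.31 ± 0.34, and Il10 by 1.64 ± 0.24 at 3 h. At 3 h 5 cytokines rose and 1 fell, with a median of 0.11, when 9.96% of all genes were called (6.82% upward). Of 31 receptor chains 4 rose at 3 h, namely Osmr (1.97 ± 0.19), Il15ra (2.24 ± 0.23), Il2ra (0.97 ± 0.23) and Il12rb1 (0.48 ± 0.14), with a median of 0.05. Il12rb2, the other IL-12 receptor chain, rose by 0.68 ± 0.19 at 1 h.

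**Figure D4:**
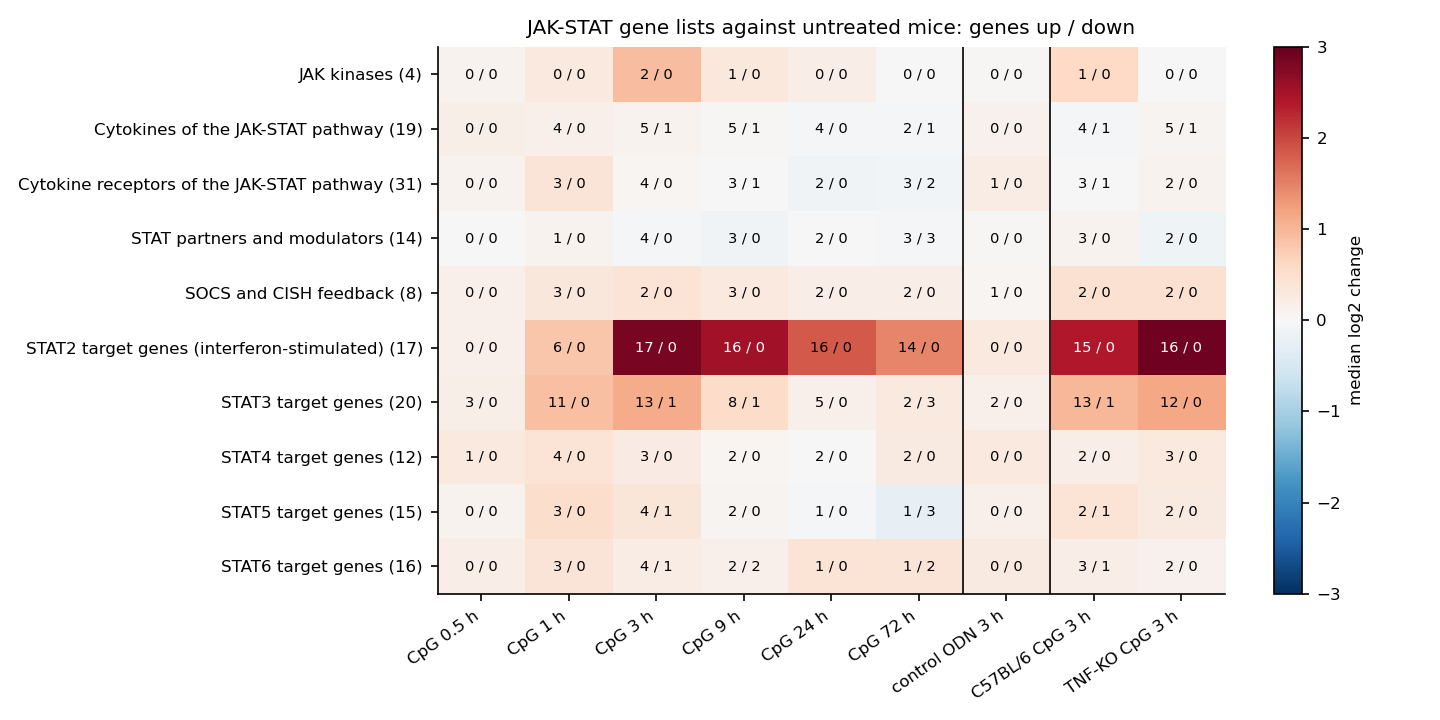
Median log2 change (colour) of 10 lists of JAK-STAT genes (rows, with the number measured) against untreated mice of the same strain and genotype (columns), with the numbers of genes that rose and fell printed in each cell. The STAT2 targets stand at 17 up and 0 down of 17 at 3 h in BALB/c, with a median of 2.85.

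Known targets were counted by the STAT protein they are best known for, and lists share some genes, such as Socs1, Socs3 and Il2ra. Of 17 interferon-stimulated STAT2 targets, 0 were called at 0.5 h, 6 rose at 1 h, 17 at 3 h, 16 at 9 h, 16 at 24 h and 14 at 72 h. Of all genes 0.256%, 3.3%, 9.96%, 6.96%, 8.44% and 10.6% were called at those times. The median change of the targets was 2.85 at 3 h and 1.47 at 72 h. At 3 h Ifih1, an RNA sensor, rose by 3.43 ± 0.15, Ifit2 by 4.57 ± 0.26, Eif2ak2, the antiviral kinase PKR, by 2.85 ± 0.17 and Usp18, an inhibitor of the interferon receptor, by 4.01 ± 0.25. Mx2, Ifit1, Mx1 and Ifit3 had the smallest adjusted p at 1 h and rose by 1.34 to 1.51, when Stat2 stood at 0.07 ± 0.16 (adjusted p = 0.86). The mean of the list lay between 0.52 and 0.82 on untreated and between 3.30 and 3.77 on 3 h arrays. After control ODN it lay between 0.88 and 1.09, and 0 of 17 were called (1.42% of all genes). In C57BL/6 mice 15 rose in control (median 2.39, 7.72% of all genes called) and 16 in TNF-KO animals (median 2.93, 3.77%).

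Of 20 STAT3 targets 3 rose at 0.5 h (0.256% of all genes called), 11 at 1 h (3.3%) and 13 at 3 h (9.96%). Their medians were 0.17, 0.90 and 1.12. Fos, Junb and Cebpb were the 3 at 0.5 h, when Stat3 stood at -0.28. Timp1 rose by 1.43 ± 0.17, Icam1 by 1.74 ± 0.22 and Saa3, an acute-phase protein, by 1.97 ± 0.27 at 3 h, and Vegfa fell by 1.37 on the log2 scale. In C57BL/6 control mice 13 rose and 1 fell (median 1.00, 7.72% of all genes called). In TNF-KO animals 12 rose (median 1.16, 3.77% of all genes called), where Stat3 itself was not called. Fos and Junb answer many signals besides STAT3.

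Of 12 STAT4 targets 4 rose at 1 h (3.3% of all genes called) and 3 at 3 h (9.96%), with medians of 0.42 and 0.26. Those at 1 h were Map3k8 (1.92 ± 0.22), Gzmb, a cytotoxic granule protease (1.84 ± 0.31), Ifng (0.80 ± 0.22) and Il12rb2. At 72 h Gzmb remained 2.60 ± 0.31 higher. Of 15 STAT5 targets 4 rose and 1 fell at 3 h (median 0.36), and of 16 STAT6 targets 4 rose and 1 fell (median 0.21). Of all genes 9.96% were called at 3 h, 6.82% upward. The STAT5 targets that rose were Socs1, Ccnd2, Il2ra and Pim1, and Tnfrsf13b fell by 0.81 on the log2 scale. Among STAT6 targets Ccl24 and Mrc1, a macrophage receptor, were lower at 9 h, by 1.89 and 2.33 in size (log2 changes of -1.89 and -2.33).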

How the data were processed

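Spleen RNA (Cy5) and Universal Mouse Reference RNA (Cy3) were hybridised on 50 two-colour arrays, per the labels. The deposited values are log2 ratios. According to the series text the authors corrected background, removed flagged spots and spots with both signals under a minimum, took log2 ratios, applied lowess within each array and kept genes on over 70% of arrays, with BRB ArrayTools and mAdb. Signals were not used here, so the signal behind each log2 ratio is unknown, and lowess removes a change shared by most genes. The table held 36607 probes, 30750 with values.

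Gene names came from the platform annotation, in which 26926 probes had 1 symbol, 203 had several and 9478 had none. The latter 2 kinds were left out. Symbols were updated through identifiers for 26774 probes and accessions for 35, 117 were kept, and 28 changed. The probe with most values stood for a gene.

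Arrays were centred on their median. limma 3.58.1 in R 4.3.3 (lmFit, eBayes) was fitted to group means over 34 BALB/c arrays (15264 genes), 16 C57BL/6 arrays (14951) and all 50 (15262), keeping probes with values on over 70% of arrays. P-values were adjusted by Benjamini-Hochberg over all genes, with a threshold of 0.05. Second probes were adjusted in the same fit over all probes. The fit was tested on simulated data. Promoter motifs were counted in Python 3.11.15.

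Named genes are the 6 STAT genes with every probe, up to 4 genes of each list with the smallest adjusted p, and the 3 genes most like each STAT gene over 12 group means. A few list members without a call were named to complete a group and were chosen after their values were seen. Members and lists were chosen with earlier results of these data known. Repeat numbers in the titles were not taken to pair the arrays, and the correlations of same-numbered arrays do not settle whether they are paired. Deviations of same-numbered BALB/c arrays correlated between -0.401 and 0.493 (median 0.049, 112 pairs), and those of C57BL/6 arrays between -0.252 and 0.372 (median 0.096, 24 pairs). Alternatives covered centring, spread, presence, probe choice, array weights, run and replicate blocks, the groups fitted and leaving out each array.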

Additional observations from a re-analysis of the deposited data

Results flagged for a closer look

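On the second Stat3 probe, 1 array of untreated C57BL/6 control spleen (replicate 1) read -1.38, while the other 3 read between -0.12 and -0.01. Its gap to the others exceeded the 95% limit of Dixon's test. Such a gap was looked for in 105 groups of values and was found in 1, and chance alone gives about 1 in 20. The same array was lowest with the first probe, and the Stat3 results without it stand in the text above. Ifit2, an interferon-stimulated STAT2 target, differed in its response between the BALB/c and C57BL/6 control arrays. It rose by 4.57 ± 0.26 in BALB/c and by 2.65 ± 0.31 in C57BL/6 control mice 3 h after CpG, and the difference of responses was -1.92 ± 0.41 (limma, adjusted p = 0.00882). The ODN and its dose are not labelled for the C57BL/6 arrays, so strain cannot be told apart from them here. With the run as a block the genes called in this difference of responses went from 69 to 41. The Ifit2 call was not followed there. Strain and array run were not separable in the untreated comparison.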

How the results depend on the processing

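Stat2 kept its calls against untreated spleen from 3 to 72 h, against control ODN and in both C57BL/6 genotypes under every setting that could be fitted, with changes at 3 h in BALB/c between 1.93 and 2.25. No called change of a STAT gene turned its direction. The count of STAT genes called moved as follows. At 1 h it went from 1 to 0 with arrays scaled to the same spread, and at 3 h from 2 to 1 with the run as a block. Between 24 h and 3 h it went from 2 to 1 with the groups fitted alone and with the run as a block, and ran from 1 to 2 when single arrays were left out. At 9 h it went from 1 to 2 with array weights, scaled arrays or the groups alone, by Stat3 (adjusted p = 0.00838, 0.0326 and 0.00515), and at 72 h from 1 to 2 with array weights. Between 9 h and 3 h it went from 0 to 1 with array weights or scaled arrays, by Stat4 (adjusted p = 0.0112 and 0.027), and from 0 to 1 over single arrays left out, without 3 h replicate 1 or 9 h replicate 4. For control ODN it ran from 0 to 1 over arrays left out. Between untreated strains it went from 0 to 1 with every probe tested or their mean, by Stat4 (0.89 and adjusted p = 0.00138 with the mean). Stat5b against control ODN lost its call with scaled arrays (0.154) and with the groups alone (0.0784), and Stat4 against control ODN gained one with scaled arrays (0.0373). Stat4 at 3 h gained a call with array weights, scaled arrays and the groups alone (adjusted p = 0.00803, 0.0489 and 0.0468), and Stat6 between 24 h and 3 h with array weights and the mean over probes (0.0225 and 0.0403).

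Repeat numbers were not taken to pair the arrays, a choice that the data do not settle. Of same-number pairs, 12 of 24 in C57BL/6 and 43 of 112 in BALB/c correlated above 0.1. With the replicate block the STAT count was the same in 17 of 17 comparisons, with Stat2 at 2.01 at 3 h. The best correlation was with the same number for 8 of 34 BALB/c and 10 of 16 C57BL/6 arrays, a hint from the data, and the C57BL/6 median was 0.096 against -0.048 for other numbers. The block moved the count over all genes from 84 to 158 and from 54 to 82 between the genotypes, untreated and after CpG. The count over all genes moved more. It was 216 for control ODN and fell to 0 with the replicate block or scaled arrays, and ran from 0 to 2117 over arrays left out. At 72 h it was 1621 and became 6003 with array weights, and at 3, 9 and 24 h it became 661, 192 and 159 with the run as a block, from 1520, 1062 and 1289. The run as a block could not be fitted for 72 h, both control ODN comparisons and the untreated strains. Causes were not tested, and with 4 arrays a group small changes of Stat5a, Stat5b and Stat6 cannot be resolved.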

Other observations

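Between untreated strains 14.5% of all genes were called, and genes of the JAK-STAT lists were among them. Of 31 cytokine receptor chains 8 were higher in C57BL/6 control than in BALB/c spleen and 0 lower, among them Il7r by 2.59 ± 0.46 (limma, adjusted p = 7.51e-05), Il21r by 1.95 ± 0.31 and Il2rb by 1.03 ± 0.27. These receptors serve lymphocytes, and the T cell marker list averaged 2.11 to 2.26 in C57BL/6 control and 1.30 to 1.82 in BALB/c arrays. Of 17 STAT2 targets 7 were higher and 1 lower, with Oasl2 at 1.58 ± 0.22 and Ifit3 at 1.64 ± 0.28, while Stat2 itself differed by 0.16 ± 0.18 (adjusted p = 0.615). Cish, the STAT5-driven feedback gene, was higher by 1.18 ± 0.22. The median change of all genes was 0.04, and strain and array run cannot be told apart.

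Untreated TNF-KO spleen gave 2 STAT2 targets below control, Isg15 by -1.66 ± 0.25 (adjusted p = 0.0088) and Rsad2 by -3.01 ± 0.50 (adjusted p = 0.0137), with Stat2 at -0.04 (adjusted p = 0.971). The mean of the 17 targets lay between 0.61 and 0.72 on the untreated TNF-KO arrays and between 1.09 and 1.58 on the untreated control arrays, without overlap, and their median difference was -0.42. In this comparison 84 of all genes were called, 10 with the groups fitted alone and 229 with the run as a block. After CpG 0 of the 17 were called between the genotypes.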
